A study of Mus musculus with 165 samples.

Results

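The 10 genes described here, which encode precursors of neuropeptides, were followed through the aging mouse brain. They were Sst, Npy, Vip, Cck, Crh, Tac1, Penk, Pdyn, Cartpt and Hcrt, chosen by name as the 10 rows of the brain count table whose Ensembl identifiers map to these symbols, of 55471 rows in all. Of these 10 genes, 9 had enough counts to be tested, among 18711 genes tested in the brain. Hcrt fell below the filter on low counts and was not tested for age, so its levels and its correlations across brains are described.

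The brains came from male mice of the inbred strain C57BL/6J/Ukj, which were kept for aging without any treatment. There were 15 brains at 3 months of age, 16 at 9 months, 16 at 15 months, 17 at 24 months and 18 at 28 months, each from 1 mouse. Polyadenylated RNA was sequenced as 1 library per brain, and the labels name each library's preparation (prep 1, 2 or 3) as a batch. The title of the series names cognitive decline, inflammation and tissue maintenance in aging, and the comparison of interest is that of older ages with 3 months. The labels call the tissue only brain. The libraries held abundant cortical excitatory neuron markers, with a summed level of 5316 to 8578 CPM over 10 genes, where CPM are counts scaled to a common library total. Of 10 hypothalamus markers, 3 transcription factors were near 0: Sim1 had 3 counts or fewer in 77 of 82 libraries, Nkx2-4 in 81 and Fezf1 in 66. Another 5 of the 10 passed the filter on low counts, among them Lhx9 at 19.8 CPM and Gpr101 at 15.9 CPM in the 3-month mean, and 5 did not pass.

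Neuropeptides are cut from larger precursor proteins in the secretory pathway, stored in dense-core vesicles and released with sustained firing, after which they act on G protein-coupled receptors. In the forebrain, Sst, Npy, Vip, Cck and Crh mark classes of GABA interneurons, and Cck is also made by many excitatory neurons. Penk, Pdyn and Tac1 are best known from striatal projection neurons, Pdyn also from dentate granule cells of the hippocampus, and Hcrt is made by a small group of lateral hypothalamic neurons.

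Vip and Pdyn are the 2 genes whose level differed between 28 and 3 months in the test described below, and the DNA just before their start sites is printed for that reason. Both sequences are from RefSeq on GRCm38.p6, 250 bases before the start site, written 5′ to 3′ on the gene's strand. Vip lies on the plus strand, chr10:5638968-5639217, and Pdyn (the first of 2 start sites in the table) on the minus strand, chr2:129699939-129700188. Capitals mark the cyclic AMP response element half-site TGACG on either strand and the box TATAAA on the gene's strand.
Vip: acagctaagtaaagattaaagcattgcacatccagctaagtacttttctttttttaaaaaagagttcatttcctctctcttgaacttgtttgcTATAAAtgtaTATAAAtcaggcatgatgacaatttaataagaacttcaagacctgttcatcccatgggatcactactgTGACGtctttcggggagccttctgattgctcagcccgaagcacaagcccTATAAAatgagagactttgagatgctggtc
Pdyn: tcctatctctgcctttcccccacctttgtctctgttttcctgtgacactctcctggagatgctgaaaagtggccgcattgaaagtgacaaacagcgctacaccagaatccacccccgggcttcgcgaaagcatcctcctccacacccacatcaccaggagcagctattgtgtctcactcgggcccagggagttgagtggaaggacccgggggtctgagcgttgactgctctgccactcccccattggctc
The Vip stretch held 1 half-site, 79 to 75 bases before the start, and 3 matches to TATAAA, the nearest 30 to 25 bases before the start. Neither Pdyn start site had a match to these letters in its 250 bases. Sst and Cartpt held the full palindrome TGACGTCA, which contains the half-site on both strands, and Cck held the half-site. The stretch of 30 bases around each is shown to set the full palindrome of Sst and Cartpt beside the half-site of Cck.
Sst, minus strand, chr16:23890875-23890904: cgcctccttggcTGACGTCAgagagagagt
Cartpt, minus strand, chr13:99900778-99900807: cccggcgggcatTGACGTCAaacggcagcg
Cck, minus strand, chr9:121495724-121495753: cctgctggactgCGTCAgcactgggtaaac
Among 32851 promoters of the same length in the table, 1.55% held TGACGTCA, 17.8% held TGACG on either strand and 7.59% held TATAAA. Tac1 had 2 half-sites, Hcrt had 1 TATAAA, and Npy had no match to any of the 3 motifs. Penk and Crh were the members with no entry, so 8 of 10 genes matched.

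The brain libraries held 11.5 to 73.4 M counts, with a median of 37.6 M. Before any result, 2 libraries need naming, because over 14993 genes they stood apart from the rest: replicate 15 at 28 months (prep 3, the shallowest library) and replicate 13 at 24 months (prep 2). The SD of their log2 deviation from the median library was 1.74 and 0.937, against at most 0.45 in the other 80 libraries. In both, short transcripts stood higher than long ones: the correlation across genes of deviation with exon length was Spearman's rho = -0.41 and -0.56. In the other 80 libraries it ran from -0.47 to 0.43, a range that holds the first value but not the second. Both libraries are in the fits, and the main results they touch are given with and without them.

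The 2 libraries were far outside the other mice for most of the peptide genes. Replicate 15 at 28 months had 873 CPM of Sst, 4.7 times the median of the other 28-month brains, 123 CPM of Npy (4.42 times) and 749 CPM of Cck (3.82 times). Cartpt was 29.6 CPM there, 17.3 times that median. Penk, at 1.11 times, Vip, at 1.37 times, and Pdyn, at 0.76 times, did not share this. Replicate 13 at 24 months had 496 CPM of Sst (2.73 times), 509.8 CPM of Cck (2.74 times) and 3.97 CPM of Crh (3.11 times), and here Vip (1.95 times) and Penk (1.72 times) were raised as well. In the opposite direction stood replicate 7 at 28 months and replicate 7 at 9 months, with Cck at 0.458 and 0.476 times and Sst at 0.5 and 0.597 times the median of their age. In both replicates numbered 7 the deviation over 14993 genes fell with GC content, the share of G and C bases (rho = -0.54 and -0.69). Cck and Sst had a GC content above that of 89.9% and 81.7% of genes. Of these genes, 1.46% were shorter than Sst and 0.867% shorter than Npy. The part of RNA quality, GC content, transcript length or dissection in these values was not tested.

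**Figure D1:**
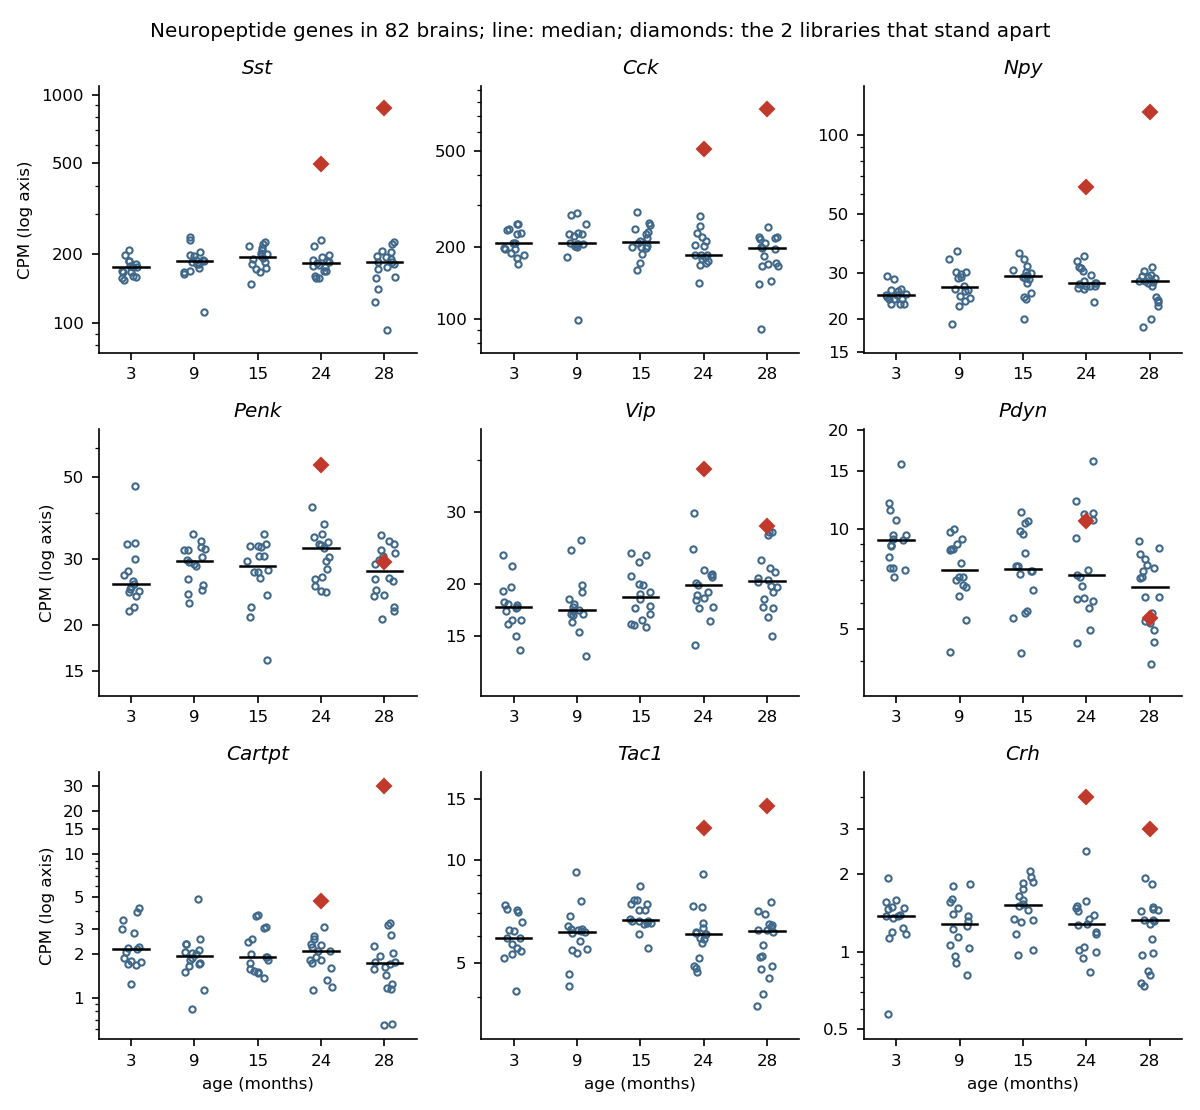
Level of 9 neuropeptide genes in each of 82 brains by age in months, as CPM on a log axis; circles are libraries, lines are medians over all libraries of the age, and diamonds are replicate 13 at 24 months and replicate 15 at 28 months. The diamonds lie above all other brains for Sst, Cck, Npy, Tac1 and Crh, while for Pdyn they lie among them.

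Levels can be compared between genes only per length. As CPM per kilobase of exon over 82 brains, Sst was the most abundant (271 ± 121, SD), followed by Cck (164 ± 58.8), Npy (50.9 ± 20.9), Penk (17.8 ± 3.44), Vip (5.73 ± 1.14) and Pdyn (2.77 ± 0.815). Cartpt (1.92 ± 2.47), Tac1 (1.88 ± 0.449), Crh (1.06 ± 0.362) and Hcrt (0.0932 ± 0.109) came last. The order held within brains down to Vip: Sst was above Cck, Cck above Npy, Npy above Penk and Penk above Vip in 82 of 82 libraries, and Vip was above Pdyn in 81. Further down it was less fixed, since Pdyn was above Cartpt in 70 of 82. Cartpt had a higher mean than Tac1 yet was above it in 27 of 82 libraries, and the SDs of both overlapped. Its higher mean came from replicate 15 at 28 months: without that library Cartpt was at 1.66 ± 0.657 and Tac1 at 1.85 ± 0.367 (SD, n = 81).

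From 3 to 28 months, 1 of the 9 tested genes rose, Vip, and 1 fell, Pdyn, with the edgeR quasi-likelihood test and Benjamini-Hochberg adjustment over all tested genes. Over all genes, 28.3% were called in this comparison, 16.3% higher and 12% lower, so 2 of 9 is a share close to the background. The median log2 fold change was 0.04 over the 9 genes and 0.01 over all tested genes. In bulk tissue, fewer cells of a type and less RNA per cell cannot be told apart. Without the 2 libraries that stood apart, 3 of 9 were called, with Cartpt as a further gene that fell, and 34.1% of all genes were. Of the other tools run, DESeq2 called 3 of 9 (Npy, Vip and Pdyn), beside 31.4% of all genes, and voom with sample quality weights 3 of 9 (Vip, Pdyn and Cck), beside 41.2%.

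Pdyn, the precursor of the dynorphins, which act on the kappa opioid receptor, ran from 7.17 CPM at its lowest over a median of 9.3 to 15.7 CPM at its highest in the 3-month brains. At 28 months it ran from 3.92 over 6.67 to 9.2 CPM. All 18 brains at 28 months lay below the 3-month median, and 10 of the 18 lay below the lowest 3-month brain, although the ranges still overlapped. Its mean was 9.58 ± 2.22 CPM at 3 months (SD, n = 15) and fell to 6.61 ± 1.57 CPM at 28 months (SD, n = 18). The fitted log2 fold change was -0.53 ± 0.13 (SE), with an adjusted p = 0.0013 (edgeR).

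The difference was not spread evenly over the ages. At 9 months Pdyn was 7.68 ± 1.63 CPM (SD, n = 16) and its log2 fold change against 3 months was -0.32 ± 0.13 (SE). The values were -0.30 ± 0.13 at 15 months and -0.20 ± 0.13 at 24 months, where single brains ran from 4.53 to 16.1 CPM. None of these 3 was called. Pdyn was the 1 gene called when the 5 ages were tested together, with an adjusted p = 0.0203 (edgeR), where 20.6% of all genes were called. There DESeq2 called 2 of 9, beside 25.4% of all genes, and voom 3, beside 43.5%.

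The fall of Pdyn at 28 months kept its sign when each prep was fitted by itself, at -0.64 ± 0.20 (SE) in prep 1, -0.64 ± 0.24 in prep 2 and -0.29 ± 0.23 in prep 3, of which the first was called. It kept its call in 82 of 82 fits that left out 1 library, with log2 fold changes from -0.56 to -0.46. With the 2 libraries that stood apart left out it was -0.51 ± 0.13 (SE), with an adjusted p = 0.0014 (edgeR).

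Markers of cell types that make Pdyn were counted beside it, where 12% of all genes were called lower. Of 8 dentate granule cell markers, a list added after the data were seen, 4 fell from 3 to 28 months and none rose, among them Lct, from 34.7 ± 10.5 to 20.2 ± 6.58 CPM (log2 fold change -0.78 ± 0.16, SE), and Trpc6 (-0.58 ± 0.10). The list's summed level was 272 to 544 CPM in 3-month brains and 190 to 434 CPM in 28-month brains, and none of its genes was at 0. Between brains of 1 age and prep, Pdyn followed this list with r = 0.49 (n = 82, a description) and 0.48 without the 2 libraries. Its r was 0.325 with cortical excitatory, 0.30 with olfactory bulb and 0.22 with striatal projection neuron markers. Without the 2 libraries these were 0.34, 0.30 and 0.23. In the fit without the 2 libraries 4 of the 8 dentate markers were again lower. Leaving out single libraries gave 2 to 4, since Prox1 lost its call without replicate 16 at 3 months and Dsp without replicate 9, 15 or 16 at that age. Of 9 striatal projection neuron markers 1 fell, a share near that of all genes. It was Adora2a, which lost its call without replicate 9 at 3 months, and their summed median was 164 CPM at 3 months and 167 CPM at 28 months. In the fit without the 2 libraries 3 of the 9 fell, Adora2a (-0.45 ± 0.12, SE), Drd2 (-0.30 ± 0.10) and Rgs9 (-0.21 ± 0.07), and the list's median was -0.21. That fit called 34.1% of all genes in either direction, against 28.3% over all brains. Olfactory bulb markers had 2 of 4 lower, Eomes and Trpc6, of which Trpc6 is on the dentate list too. The part of these cell types in the fall of Pdyn was not tested.

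Vip, whose product vasoactive intestinal peptide marks an interneuron class that mainly inhibits other interneurons, moved the other way. It ran from 13.9 over a median of 17.6 to 23.6 CPM at 3 months and from 15 over 20.3 to 27.7 CPM at 28 months. The ranges overlapped widely: 15 of 18 brains at 28 months lay above the 3-month median, but 4 lay above the highest 3-month brain. Mean Vip was 17.9 ± 2.52 CPM at 3 months (SD, n = 15) and rose to 21.1 ± 3.73 CPM at 28 months (SD, n = 18). The fitted difference was 0.23 ± 0.09 (SE) on the log2 scale, with an adjusted p = 0.0399 (edgeR).

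The intermediate ages lay between these values. Mean Vip was 18.1 ± 3.02 CPM at 9 months, 19 ± 2.69 CPM at 15 months and 21 ± 5.55 CPM at 24 months (SD). The log2 fold changes against 3 months were 0.02 ± 0.09, 0.09 ± 0.09 and 0.23 ± 0.09 (SE), none of them called, and the last was 0.16 ± 0.08 (SE) without the 2 libraries. With age as 1 linear term, added after the means had been seen, Vip rose by 0.26 ± 0.07 (SE) on the log2 scale over 25 months, with an adjusted p = 0.00358 (edgeR), where 33.8% of all genes were called.

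The call of Vip at 28 months was close to the threshold. It was kept in 70 of 82 fits that left out 1 library. It was lost without any of 12 libraries, which were replicates 2, 3, 5, 7, 9, 11, 14 and 16 at 3 months and replicates 7, 13, 15 and 17 at 28 months. Across the 82 fits the log2 fold change ran from 0.21 to 0.27 and the adjusted p from 0.0192 to 0.0686. Within preps it was 0.33 ± 0.12 (SE), 0.16 ± 0.17 and 0.18 ± 0.15, positive in each and called in none. Without the 2 libraries that stood apart it was 0.21 ± 0.08 (SE) with an adjusted p = 0.0324 (edgeR). Markers of the hypothalamus varied against Vip between brains of 1 age and prep, with r = -0.56 over 5 genes (n = 82, a description). Without the 2 libraries this was -0.48. With the hypothalamus score as a further term the log2 fold change of Vip was 0.12 and the call was lost. Other lists had an r with Vip of like size. Dentate granule cell markers were at -0.46 (-0.50 without the 2 libraries) and clock output genes at 0.25 (0.55 without them). Hippocampal pyramidal markers were at -0.20 (-0.43 without them).

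**Figure D2:**
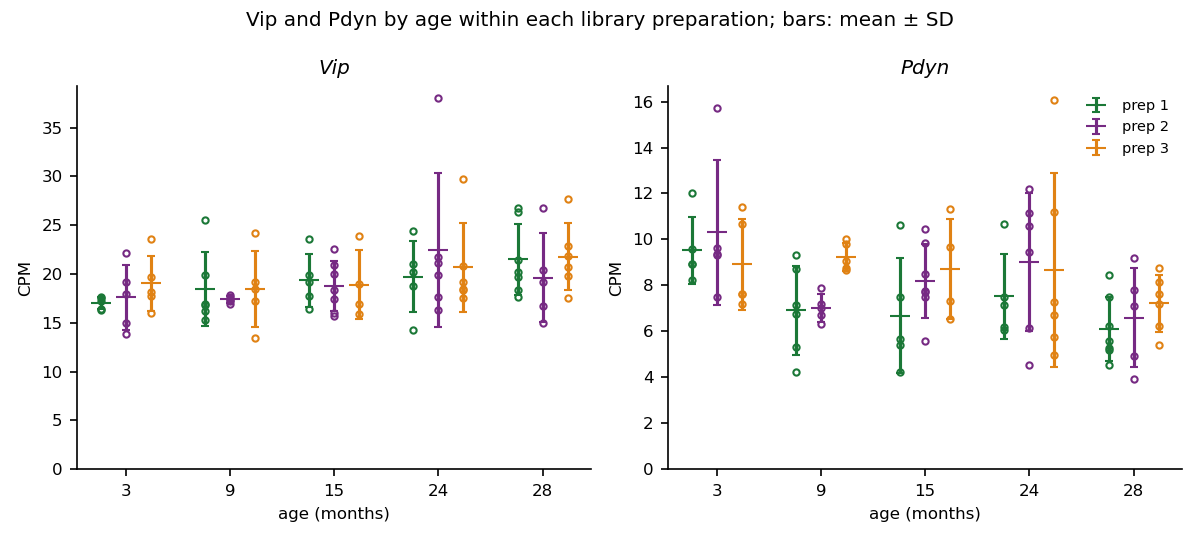
CPM of Vip and Pdyn in each brain by age in months and library preparation (colours), with mean ± SD as bars. Mean Pdyn is lower at 28 than at 3 months in each prep, from 9.53 to 6.11 CPM in prep 1, and mean Vip is higher in each, from 17 to 21.5 CPM in prep 1.

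Sst and Npy, which are often made by the same interneurons, had higher means at the older ages, and at 28 months the size of this rested on replicate 15. Mean Sst, the somatostatin precursor, was 175 ± 15.7 CPM at 3 months, 186 ± 28.4 at 9, 194 ± 21.8 at 15, 202 ± 78.2 at 24 and 216 ± 167 at 28 months (SD). The medians were nearer to each other, at 177, 187, 196, 183 and 186 CPM. Single brains ran from 154 to 209 CPM at 3 months and from 93 to 873 CPM at 28 months, and the 28-month brains lay on both sides of the 3-month range. The log2 fold change at 28 months was 0.30 ± 0.15 (SE) with an adjusted p = 0.125 (edgeR). Leaving out replicate 15 at 28 months alone gave 0.01 and leaving out both libraries 0.01 ± 0.07 (SE), and the 28-month mean was 178 ± 34.6 CPM (SD, n = 17). At 24 months the log2 fold change was 0.20 ± 0.15 (SE) over all brains. Without replicate 13 it was 0.07 and the mean 184 ± 20.4 CPM (SD, n = 16).

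Npy, the neuropeptide Y precursor, had means of 24.9 ± 1.91 CPM at 3 months, 27.3 ± 4.31 at 9, 28.6 ± 3.9 at 15, 30.6 ± 8.92 at 24 and 31.8 ± 23 at 28 months (SD). The 3-month brains were close together, from 22.8 over a median of 24.7 to 29.3 CPM, and the 28-month brains ran from 18.7 over 27.9 to 123 CPM and overlapped them. At 28 months the log2 fold change was 0.33 ± 0.13 (SE), with an adjusted p = 0.0527 (edgeR), just outside the threshold, and 0.08 ± 0.06 (SE) without the 2 libraries. At 24 months, where the log2 fold change was 0.29 ± 0.13 (SE) and not called, leaving out the 2 libraries gave 0.20 ± 0.07 (SE) with an adjusted p = 0.0255 (edgeR), a call in a fit where 17.1% of all genes were called. Over the 4 older ages in that fit Npy was at 0.13, 0.19, 0.20 and 0.08 against 3 months, so the lowest value was at 28 months.

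Single libraries decided whether Npy was called at 28 months. Leaving out any of 14 libraries brought the adjusted p under the threshold, to 0.0281 at the lowest. These were replicates 1, 3, 4, 5, 6, 7, 8, 9, 12, 14, 16 and 17 at 28 months, replicate 13 at 24 months and replicate 9 at 3 months. Leaving out replicate 15 at 28 months took the log2 fold change down to 0.09 and the adjusted p up to 0.441, while at 24 months the same step gave an adjusted p = 0.00696 (edgeR).

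Cck, the cholecystokinin precursor, was level in mean, at 211 ± 25.6 CPM at 3 months, 213 ± 40.0 at 9, 214 ± 30.5 at 15, 216 ± 81.9 at 24 and 217 ± 138 at 28 months (SD). Its medians were lower at the oldest ages, at 207 CPM at 3 months against 186 at 24 and 197 at 28 months. At 28 months brains ran from 90.8 to 749 CPM, and 6 of 18 lay below the lowest 3-month brain of 170.4 CPM, while 1 lay above the highest. The log2 fold change at 28 months was 0.04 ± 0.14 (SE) with all brains and -0.19 ± 0.09 (SE) without the 2 libraries, with adjusted p = 0.858 and 0.0775 (edgeR). Neither fit called it, and the sign differed between them. It was -0.27 in prep 1, -0.09 in prep 2 and 0.43 in prep 3 fitted alone. With voom and sample quality weights Cck was called as lower, at -0.16 with an adjusted p = 0.0421, the 1 call among 15 alternatives.

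Crh and Tac1 gave no call at any age. Crh, corticotropin-releasing hormone, an interneuron peptide of the cortex as well as the hypothalamic stress signal, ran from 0.573 over 1.38 to 1.93 CPM at 3 months and from 0.734 over 1.32 to 2.99 CPM at 28 months, and its log2 fold change was -0.06 ± 0.15 (SE). Tac1, the precursor of substance P and neurokinin A, ran from 4.14 over 5.93 to 7.41 CPM at 3 months and from 3.76 over 6.2 to 14.4 CPM at 28 months, with a log2 fold change of 0.03 ± 0.11 (SE). The 28-month brains of both genes covered the 3-month range almost whole. Their highest means, 1.52 ± 0.324 CPM for Crh and 6.91 ± 0.688 CPM for Tac1 (SD, n = 16), were both at 15 months. In the fit without the 2 libraries the 28-month values were -0.13 ± 0.13 for Crh and -0.07 ± 0.08 for Tac1 (SE), neither called.

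Penk, the precursor of the enkephalins, which act mainly on delta and mu opioid receptors, did not share the course of Pdyn. It ran from 21.8 over 25.8 to 47.2 CPM at 3 months and from 20.7 over 27.9 to 35 CPM at 28 months, with nearly equal means of 27.9 ± 6.33 and 27.8 ± 4.31 CPM (SD). The log2 fold change was 0.00 ± 0.09 (SE) at 28 months and 0.22 ± 0.09 (SE) at 24 months, where the mean was highest at 32.4 ± 7.27 CPM (SD, n = 17) and the adjusted p was 0.125 (edgeR). That value turned on single libraries. Without replicate 13 at 24 months it was 0.16 with an adjusted p = 0.282 (edgeR). Without replicate 9 at 3 months, which had both the highest Penk (47.2 CPM) and the highest Pdyn (15.7 CPM) of its age, Penk at 24 months was 0.29 higher on the log2 scale with an adjusted p = 0.0211 (edgeR). Exons of Penk share 233 bases with the antisense gene A830012C17Rik, and whether counting used strand is not given in the sources used here, so reads of the pair may be mixed.

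Cartpt, the precursor of cocaine- and amphetamine-regulated transcript peptides, had a 28-month mean set by 1 library. At 3 months it ran from 1.24 over 2.17 to 4.18 CPM, and at 28 months from 0.642 over 1.75 to 29.6 CPM, with the next highest brain at 3.33 CPM. Of 18 brains at 28 months, 13 lay below the 3-month median and 4 below the lowest 3-month brain. The mean was 2.42 ± 0.882 CPM at 3 months and 3.33 ± 6.61 CPM at 28 months (SD), a log2 fold change of 0.23 ± 0.29 (SE) that was not called. Without the 2 libraries the 28-month mean was 1.78 ± 0.772 CPM (SD, n = 17), the log2 fold change was -0.45 ± 0.18 (SE) and Cartpt was called as lower, with an adjusted p = 0.0408 (edgeR). Leaving out replicate 15 at 28 months alone gave -0.45 with an adjusted p = 0.0578 (edgeR), not a call. By prep it was -0.24, -0.82 and 1.36, the last in prep 3, which holds that library.

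Hcrt, the hypocretin or orexin precursor of the wakefulness neurons, was at the edge of detection. It had 198 counts in all 82 brains together, 15 libraries had none and 63 had 3 counts or fewer. A count of 3 corresponds to 0.0417 to 0.345 CPM, depending on the library's depth, and covers counting error only. Median levels were 0.0591 CPM at 3 months, 0.0507 at 9, 0.0468 at 15, 0.0495 at 24 and 0.0296 at 28 months, and the highest library was again replicate 15 at 28 months, with 0.574 CPM. A difference with age was not tested, since Hcrt did not pass the filter on low counts.

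**Figure D3:**
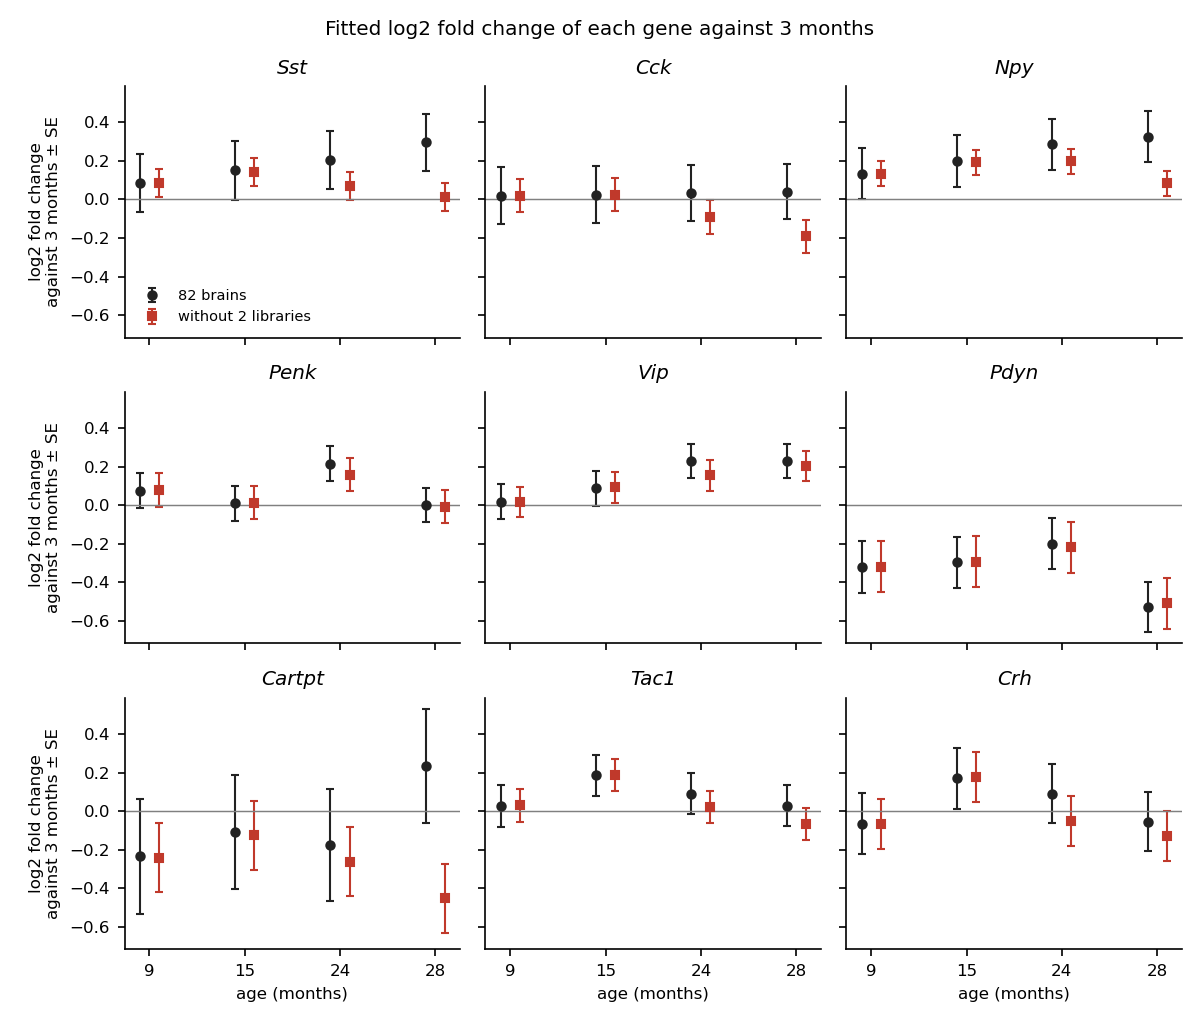
Fitted log2 fold change (± SE) of 9 neuropeptide genes at 9, 15, 24 and 28 months against 3 months, over 82 brains (circles) and without the 2 libraries that stood apart (squares). Vip and Pdyn keep their place at 28 months in both fits, whereas Sst moves from 0.30 to 0.01 and Cartpt from 0.23 to -0.45.

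In the other comparisons edgeR called 0 of the 9 genes. At 9 against 3 months, where 0.315% of all genes were called, 1 of the 9 had an unadjusted p under 0.05, Pdyn. DESeq2 and voom also called 0, beside 0.676% and 2.36% of all genes. At 15 against 3 months (0.871% of all genes called) 1 had an unadjusted p under 0.05, again Pdyn. DESeq2 called 0 (1.23% of all genes) and voom called 1, Npy (4.39%). Between 24 and 3 months (10.1% of all genes called) Npy, Vip and Penk had an unadjusted p under 0.05. DESeq2 called 0 (13.4% of all genes) and voom called 1, again Npy (26.5%). For 24 against 15 months (0.732% called) 1 gene, Penk, and for 28 against 24 months (1.09% called) 2 genes, Penk and Pdyn, had an unadjusted p under 0.05, and neither other tool made a call. DESeq2 called 1.36% and 2.33% of all genes in these 2 comparisons and voom 4.53% and 4.8%. From 24 to 28 months Penk was at -0.21 ± 0.09 and Pdyn at -0.33 ± 0.13 (SE) on the log2 scale, while Vip was at 0.00 ± 0.09.

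Of 22 listed neuropeptide receptors 21 were tested, 6 fell and 1 rose at 28 months, and the median log2 fold change was -0.13. These are 28.6% lower and 4.76% higher, beside 12% and 16.3% of all genes. Tacr3, the neurokinin B receptor, had the lowest value. It averaged 4.36 ± 1.57 CPM at 3 months (SD, n = 15) and fell to 2.22 ± 1.04 CPM at 28 months (SD, n = 18), which is -0.96 ± 0.23 (SE) on the log2 scale. Hcrtr2, a receptor for the Hcrt peptides, fell from 3.02 ± 0.394 to 1.88 ± 0.537 CPM (-0.65 ± 0.10), and the highest 28-month brain, at 2.66 CPM, stayed below the 3-month median of 2.97 CPM. Tacr2, a further tachykinin receptor, rose by 0.61 ± 0.21 but stayed under 1 CPM in each brain.

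The other 4 receptors that fell, named to complete the count, bind peptides of Sst, Npy and the opioid precursors. They were Sstr4 (-0.56 ± 0.18, SE) and Sstr2 (-0.33 ± 0.10) for somatostatin, Oprd1 (-0.41 ± 0.15) for enkephalins and Npy5r (-0.24 ± 0.08) for neuropeptide Y. Receptors of the 2 peptides that changed did not pass the test: Oprk1, the dynorphin receptor, was at -0.02 ± 0.15, and the Vip receptors Vipr1 and Vipr2 were at -0.02 ± 0.06 and 0.12 ± 0.22. The count of receptors was again 6 lower and 1 higher of 21 without the 2 libraries, beside 34.1% of all genes called in either direction. It was 5 to 8 lower and 1 higher in the 82 fits without 1 library.

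Crhbp, which binds the Crh peptide outside the cell, rose while Crh itself was not called. It ran from 15.6 over 18.9 to 21.5 CPM at 3 months and from 14.7 over 24.3 to 26.9 CPM at 28 months, so most of the older brains lay above the 3-month range. The log2 fold change was 0.33 ± 0.06 (SE) with an adjusted p = 4.8e-06 (edgeR). Of 9 genes for peptide binding and breakdown, 1 rose and 2 fell: the peptidases Mme (neprilysin, -0.48 ± 0.10, SE) and Prep (prolyl endopeptidase, -0.19 ± 0.05). The median of the 9 was -0.03, and the shares, 11.1% higher and 22.2% lower, stand beside 16.3% and 12% of all genes. With the 2 libraries left out 1 rose and 3 fell, in the fit that called 34.1% of all genes in either direction.

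Of 15 genes that cut and store peptides 2 were called higher and none lower, with a median log2 fold change of -0.01. These are 13.3% and 0%, beside 16.3% and 12% of all genes. Scg5, a chaperone of the convertase Pcsk2, rose from 130.2 ± 8.76 to 158 ± 34.6 CPM (0.28 ± 0.07, SE) and was called without the 2 libraries too (0.21 ± 0.03). Pcsk1n, which encodes an inhibitor of the convertase Pcsk1, was called at 0.57 ± 0.22 over all brains, but 3480 CPM in replicate 15 at 28 months against a median of 420 CPM carried that value, and without the 2 libraries it was 0.08 ± 0.12. In that fit 1 of the 15 genes rose and 2 fell, beside 34.1% of all genes called in either direction.

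Of 25 other neuropeptide genes 16 were tested, 1 rose and 1 fell, 6.25% each way beside 16.3% and 12% of all genes, and the median was -0.07. Cort, a relative of Sst, was at 0.62 ± 0.21 (SE) over all brains and at 0.17 ± 0.10 without the 2 libraries, where it was not called. Pomc, the precursor of beta-endorphin and melanocortins, was at -1.87 ± 0.64, but its medians were nearly equal, 0.935 CPM at 3 months and 1.08 CPM at 28 months. Its call rested on replicate 5 at 3 months, without which it was at 0.06 with an adjusted p = 0.939 (edgeR). That library had 69.1 CPM of Pomc and 495 CPM of Gh, the growth hormone gene of the pituitary, against a 3-month median of 0.022 CPM for Gh. Of the 7 pituitary markers 7 had a median of 3 counts or fewer, and their summed level ran from 0 to 591 CPM at 3 months and from 0 to 3.92 CPM at 28 months. The part of pituitary tissue in the value of Pomc was not tested. In the fit without the 2 libraries none of the 16 rose and 2 fell, beside 34.1% of all genes called in either direction.

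**Figure D4:**
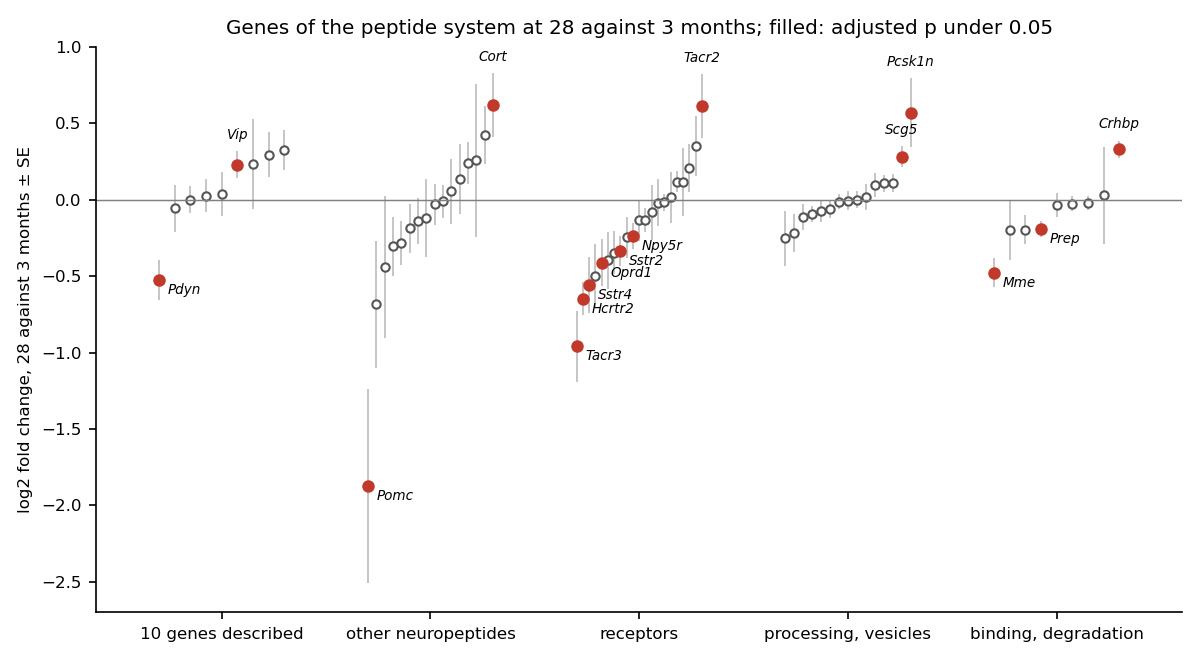
Fitted log2 fold change (± SE) at 28 against 3 months of the tested genes of the peptide system, sorted within 5 lists, with called genes filled and named. Receptors hold 6 called genes below 0 and 1 above, the 9 members 1 below and 1 above.

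Interneuron and region markers were counted the same way, again beside 16.3% of all genes called higher and 12% lower. Of 12 GABA interneuron markers 2 rose, Pvalb (0.79 ± 0.21, SE; 0.36 ± 0.10 without the 2 libraries) and Htr3a (0.33 ± 0.09; 0.29 ± 0.08 without them), a receptor subunit of the class that includes Vip cells, and none fell. Calls higher and lower were 0 and 1 of 10 for cortical excitatory, 0 and 0 of 5 for hypothalamic, 2 and 0 of 6 for cerebellar and 0 and 1 of 6 for thalamic markers. They were 0 and 2 of 4 for olfactory bulb, 0 and 1 of 6 for monoamine, 0 and 1 of 8 for pan-neuronal, 0 and 0 of 6 for choroid plexus and 0 and 0 of 8 for hippocampal pyramidal markers. Immediate early genes had 0 and 1 of 10, clock output genes 5 and 1 of 11, and pituitary markers 0 and 1 of 1. The cerebellar calls, Cbln3 and Fat2, rested on replicate 14 at 28 months, which had 101 CPM of Cbln3 against 2.25 CPM in the next brain. Without it Cbln3 was at 0.12 with an adjusted p = 0.897 and Fat2 at -0.91 with an adjusted p = 0.328 (edgeR). For choroid plexus markers 5 were lower without replicate 12 at 28 months. Over the 82 fits without 1 library the lower calls ran from 0 to 1 for cortical excitatory, hypothalamic and monoamine markers and from 0 to 2 for thalamic, pan-neuronal and interneuron markers, so single calls in these lists depended on single libraries. The fit without the 2 libraries gave 3 and 0 for interneuron, 0 and 0 for cortical excitatory and pan-neuronal, 0 and 1 for hippocampal pyramidal and 7 and 2 for clock output genes, and the same counts as over all brains for the other lists of this paragraph. That fit called 34.1% of all genes in either direction.

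Between mice of 1 age and prep, the peptide genes varied together in part. Correlations were taken between log2 CPM values after the means of age and prep had been removed, over 82 brains, with a permutation p adjusted over the 45 pairs. By this measure 26 of 45 pairs were called, each with a positive r, and 14 of the 26 were called by Spearman's rho as well. Without the 2 libraries that stood apart 9 pairs were called, of which 8 were among the 26 and the rest of the 26 lost their call.

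Of the 6 pairs among Sst, Npy, Cck and Tac1, 5 kept their call without the 2 libraries. Sst and Npy had r = 0.90 (rho = 0.64) over 82 brains, with an adjusted permutation p = 9e-05, and r = 0.68 when the 2 libraries were left out before age and prep were removed. The same 2 libraries were the farthest from the median in Sst, and dropping them after that step gave r = 0.71. Sst and Tac1 had r = 0.78 (rho = 0.65; 0.60 without the 2 libraries), Sst and Cck r = 0.85 (rho = 0.46; 0.63), Npy and Tac1 r = 0.71 (rho = 0.48; 0.46) and Npy and Cck r = 0.79 (rho = 0.44; 0.48). Each of these 5 pairs was called in both settings. Without the 2 libraries Sst and Cck had rho = 0.36, and Npy and Cck rho = 0.365. Dropping also the 2 remaining brains farthest from the median of the first gene gave r = 0.31 and 0.38 for these Cck pairs. Cck and Tac1 had r = 0.51 (rho = 0.13) over 82 brains, a call that was lost at r = 0.09 without the 2 libraries.

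Vip and Penk had fewer such pairs. Vip went with Crh (r = 0.59, rho = 0.46, and 0.45 without the 2 libraries, called in both), and Penk with Cck (r = 0.42, rho = 0.42 and 0.39, called in both). Crh and Hcrt also kept their call (0.43 and 0.29), although Hcrt rests on few counts. Pdyn was in none of the 26 called pairs. Its r with Sst was -0.10, with Penk 0.06 and with Vip 0.02, and without the 2 libraries it was called with Cartpt (r = 0.34). Cartpt had r = 0.66 with Sst, 0.65 with Cck and 0.61 with Npy over 82 brains, which fell to 0.26, 0.34 and 0.09, none called.

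**Figure D5:**
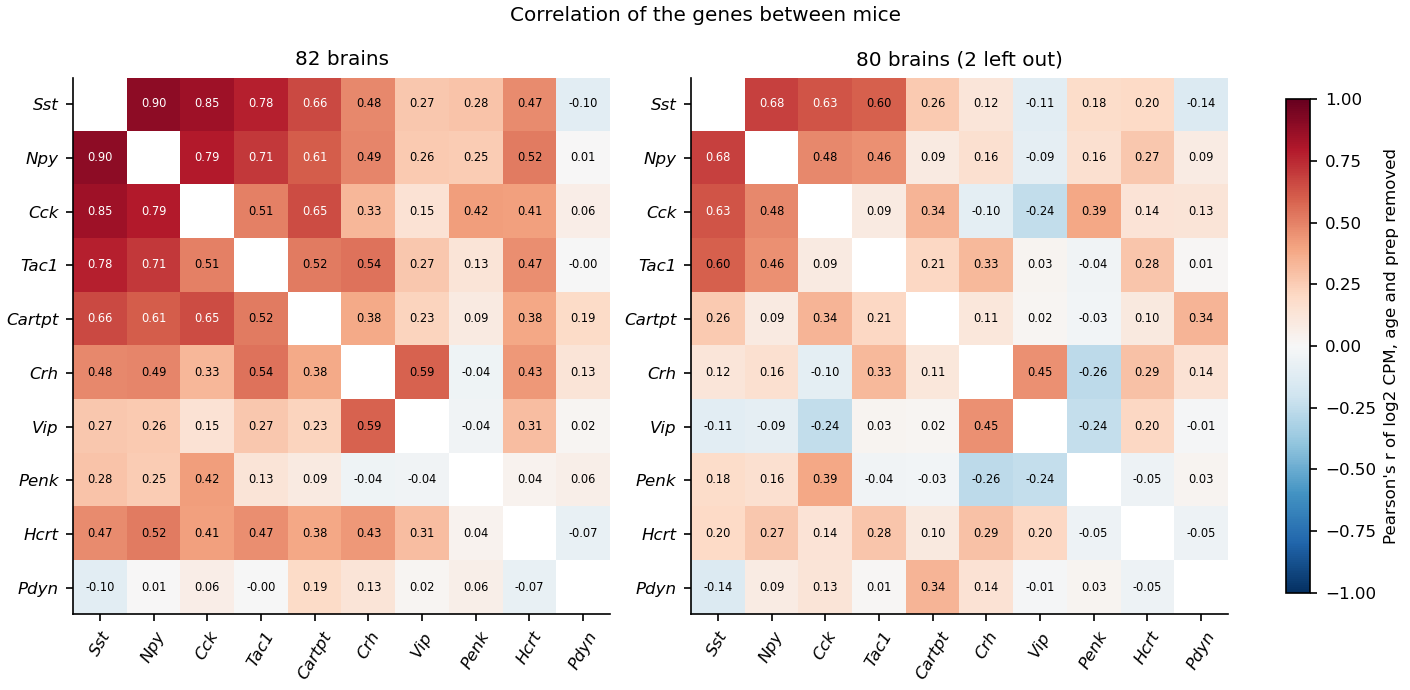
Pearson's r between 10 neuropeptide genes across brains, from log2 CPM with the means of age and prep removed, for 82 brains (left) and 80 brains (right). The block of Sst, Npy, Cck and Tac1 keeps r of 0.46 or more in 5 of its 6 pairs on the right, and the row of Pdyn is pale on the left and reaches r = 0.34, with Cartpt, on the right.

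The genes whose levels followed each peptide gene most closely, among 15007 genes at a mean of at least 1 CPM, differed between members. For Cck they were Mlf2, Zfp771 and Pcsk1n (r = 0.95 each, and 0.90 or more without the 2 libraries). For Sst they were Nat14, Exosc4 and Uqcrc1 (r = 0.93 each; 0.80 for each without the 2 libraries), and for Npy they were Sst, Matk and Brk1 (0.90, 0.89 and 0.89; 0.71, 0.62 and 0.62 without them). For Tac1 they were Sst, 6330403K07Rik and Resp18 (0.78, 0.77 and 0.76; 0.615, 0.60 and 0.60 without them), and for Cartpt Mgat1, Hes6 and Ttc9b (0.81, 0.79 and 0.78; 0.61, 0.58 and 0.58 without the 2 libraries).

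Vip, Crh, Penk and Pdyn had other nearest genes. Vip went with Nap1l5, Tpd52 and Gm28151 (r = 0.74, 0.74 and 0.73; 0.69, 0.66 and 0.65 without them) and Crh with Ccdc136, Camk1 and Dusp26 (0.70, 0.69 and 0.68; 0.60, 0.54 and 0.55 without them). Penk went with Lefty1, Stx6 and Rgs14 (0.61, 0.58 and 0.56; 0.58, 0.57 and 0.60 without them). Pdyn went with Lrtm2, Fam163b and Mylk3 (0.68, 0.67 and 0.67, and 0.67 for each without them), and Hcrt, on few counts, with Pxmp4, Morn2 and Zdhhc3 (0.62, 0.57 and 0.57; 0.49, 0.42 and 0.40 without them). These likenesses are descriptions over 82 brains that share library effects, and for them the 2 libraries were dropped after age and prep had been removed.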

How the data were processed

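Per the submitters' processing notes, the tools were cutadapt 2.8, HISAT2 2.1.0, SAMtools 1.9 and featureCounts of Subread 2.0.1, and the build was GRCm38.p6 (mm10). The authors deposited raw counts, whole numbers per Ensembl gene, for 82 brains and 83 livers (0 sample columns unused). Whether counting used strand is not given in the sources used here.

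Brain counts were fitted in R 4.3.3 with edgeR 4.0.16 (filterByExpr by age, TMM scaling, age and prep as terms, quasi-likelihood test over 82 libraries). P-values were two-sided and adjusted by Benjamini-Hochberg over 18711 genes, with calls at an adjusted p under 0.05. SE is the absolute log2 fold change over the square root of F. CPM are of the TMM-scaled library, and log2 values have a prior count of 2. Correlations had p from 100000 permutations of 1 gene within age and prep. The code was tested on simulated data. Alternatives used limma 3.58.1 (voom), DESeq2 1.42.0, other terms, single preps and 82 fits without 1 library. P-values measure the spread between mice of 1 strain.

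Genes were named by rule: the 10 members, the 2 highest and 2 lowest log2 fold changes of each list among genes called at 28 against 3 months, and the 3 genes most like each member. Other genes named, such as hypothalamus markers, Oprk1, Vipr1 and Vipr2, were chosen after their values were seen. The members, lists and tests were chosen with earlier results of these data known. The dentate and hippocampal pyramidal lists, the linear age term, the fits without 2 libraries and the list values without 1 library were added after the data were seen.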

Additional observations from a re-analysis of the deposited data

Results flagged for a closer look

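The liver tables were not part of the comparisons above, and 2 of the 10 genes had a signal there above the 3 counts that a count of 0 allows. Penk had more than 3 counts in 42 of 83 livers, with a median of 4 counts (0.107 CPM) and at most 48 counts (1.19 CPM, at 24 months). These were 5 of 16 livers at 3 months, 5 of 16 at 9, 5 of 16 at 15, 13 of 17 at 24 and 14 of 18 at 28 months. The difference between ages was not tested, since Penk did not pass the filter on low counts in the liver. Tac1 had more than 3 counts in 1 liver, with 4 counts. The other 8 genes had at most 3 counts in any liver, and Crh and Hcrt had none.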

How the results depend on the processing

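The count of called members at 9 against 3, 24 against 15 and 28 against 24 months was 0 under each of 15 alternatives and in 82 fits without 1 library. At 15 against 3 months voom called 1 (Npy), and the fits without 1 library gave 0 to 0. For 24 against 3 months the count was 1 with the striatal marker score as a term (Vip), without replicates 14 and 15 at 28 months, without the 2 libraries that stood apart, with only the ages compared and with voom (Npy in these 4), and 0 to 1 in fits without 1 library, where Vip was called without replicate 12 at 24 or replicate 10 at 3 months. At 28 against 3 months the 2 calls became 1 without a filter on low counts, with the hypothalamus marker score as a term and in prep 1 alone, 0 in prep 2 or prep 3 alone, and 1 to 3 in fits without 1 library. The count was 3 with DESeq2, with voom and without the 2 libraries that stood apart, among other settings. Over the 15 alternatives (14 for Cartpt) Pdyn was called in 13, Vip in 9, Npy in 4 and Sst, Cck and Cartpt in 1 each. Each prep holds fewer samples. With the 5 ages together the 1 call became 0 in each prep alone, 2 with the clock output score as a term and with DESeq2, and 3 with voom, with age as 1 linear term (Npy, Vip and Pdyn) and without replicates 14 and 15, and it was 1 to 2 in fits without 1 library. Vip was called there without replicates 10 or 12 at 3, 7 or 11 at 9, 12 or 14 at 24, or 10 or 14 at 28 months, and Npy without replicate 15 at 28 months. Called pairs of genes fell from 26 to 17 without replicates 14 and 15 at 28 months, to 9 without the 2 libraries and to 9 in the 3, 9 and 15 month brains alone, and were 29 in the 24 and 28 month brains alone. The log2 fold change at 28 months turned to -0.16 for Cck with voom, a call, and to -0.45 for Cartpt without the 2 libraries. Counting every alternative, the sign at 28 months was kept in 8 of 15 alternatives for Cck and for Penk, 8 of 14 for Cartpt, 11 of 15 for Tac1 and 12 of 15 for Crh, and in 15 of 15 for Sst, Npy, Vip and Pdyn. The cause of these changes was not tested. With the replicate number as a block, 2 members were called at 28 months and 1 over all ages, as without it. The numbers do not pair the mice: deviations of same-numbered libraries had a median r of 0.004 over 157 pairs. Another scaling moved the median log2 fold change of all genes at 28 months from 0.008 to 0.012. Low counts limit Hcrt, Crh and Cartpt most.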
